A study of Mus musculus with 10 samples.

Results

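The genes described are desmoplakin (Dsp) and 7 other genes of the cell junction plaque: plakoglobin (Jup), the plakophilins Pkp2 and Pkp4, the desmosomal cadherins Dsg2 and Dsc2, and the plakins periplakin (Ppl) and envoplakin (Evpl). The list was chosen by a measured value, since Dsp had been among the probe sets that passed the test in the same comparison, and the other genes were taken as its partners and relatives. Its differences between the groups are therefore given as a description and support nothing further. Every probe set that the platform annotation gives to 1 of these symbols was taken, which came to 20 probe sets of the 8 genes among 18193 genes named on the array. Of the 20, 9 probe sets of 6 genes exceeded the median of their own array on 5 or more of the 10 and were tested. The other 11 were too dim, among them all probe sets of Dsc2 and Evpl.

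Total RNA came from the aorta of male mice, 5 arrays of wild type (C57Bl/6) and 5 of NPAS2 mutant mice on a C57Bl/6J background. Whether these strain names stand for different substrains is not stated, and such a difference could not be told apart from genotype. Mice of both groups had at least 2 weeks of 12 h light and 12 h dark, then at least 30 h of constant darkness, and were killed at ZT14, 14 h after the hour at which the lights had come on. The labels call the tissue thoracic aorta in 1 place and, in another, the vessel from the arch to past the femoral branching. The nature of the mutation, the age of the mice and whether each array held a separate mouse are not stated in the labels. Errors therefore measure the spread between arrays, which may in part be technical. NPAS2 is a circadian transcription factor that pairs with BMAL1 on E-box sequences.

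Desmosomes join the intermediate filaments of neighbouring cells. Desmogleins and desmocollins, such as Dsg2 and Dsc2, bridge the gap between the cells, plakoglobin and plakophilins bind the tails of these cadherins, and desmoplakin ties the plaque to the filaments. Classical desmosomes are best known from epithelia and heart muscle, while endothelial junctions hold plakoglobin together with VE-cadherin. Pkp4 is a plakophilin relative found at both desmosomes and adherens junctions, and periplakin and envoplakin are plakins best known from the cornified envelope of skin.

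Across the table, levels were log2 values with upper quartiles between 5.40 and 5.55 on every array, and correlations between arrays ran from 0.986 to 0.996. The smooth muscle markers expected of an arterial wall were bright on every array, with list means between 11.15 and 11.56. Npas2 levels were low, at 3.44 to 3.96 in wild type and 3.38 to 3.47 in the mutant on 1421037_at, where the groups overlapped narrowly. The change was -0.28 ± 0.10 (SE, limma adjusted p = 0.249), and with the nature of the mutation not stated this does not check the genotype. Marker means of skeletal muscle ran from 3.23 to 9.90 in wild type and from 3.27 to 11.05 in the mutant, and were highest on mutant F12, wild type F16, mutant F20 and mutant F19. Of 22340 tested probe sets, 48 (0.215%) had a limma adjusted p of at most 0.05 and are said here to have passed, 27 of them (0.121%) lower in the mutant. All 5 mutant arrays lay below all 5 wild-type arrays on 559 (2.50%).

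Dsp was lower in the mutant on each of its 3 probe sets. On 1435494_s_at the wild-type log2 levels were 9.49 (F11), 9.56 (F14_2), 9.39 (F15), 9.37 (F16) and 9.38 (F17). The mutant levels were 8.72 (F12), 8.73 (F13), 9.09 (F18), 9.05 (F19) and 8.71 (F20). No mutant array reached a wild-type one, and the wild-type arrays lay close together while the mutant arrays split, with F18 and F19 above the other 3. The means were 9.44 ± 0.08 and 8.86 ± 0.19 (SD, n = 5 each), a log2 change of -0.58 ± 0.09 (SE), or 1.49-fold lower, with a limma adjusted p of 0.0373. This is the value that put the gene on the list. The call was lost when any array other than mutant F18 was left out (limma adjusted p up to 0.0907), while the change stayed between -0.63 and -0.54.

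On 1435493_at, the brightest probe set of Dsp, F18 and F19 were again the highest mutant arrays, while the order of the other arrays differed. Its wild-type levels were 9.76, 9.66, 9.68, 9.60 and 9.69 on F11, F14_2, F15, F16 and F17. In the mutant they were 8.75 (F12), 9.01 (F13), 9.51 (F18), 9.43 (F19) and 8.92 (F20), again below every wild-type array, with a gap of 0.09 between the groups. The mutant SD of 0.33 was larger than the wild-type SD of 0.06 (n = 5 each). The log2 change was -0.56 ± 0.14 (SE) and did not pass (limma adjusted p = 0.123).

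The dimmer probe set 1427610_at gave a difference of similar size, with F19 and F20 as the highest mutant arrays. Wild-type levels were 5.18, 4.56, 4.93, 4.84 and 4.92 (F11, F14_2, F15, F16, F17), and mutant levels 4.19, 3.86, 4.23, 4.52 and 4.38 (F12, F13, F18, F19, F20). The groups did not overlap, but the highest mutant array, F19, was within 0.04 of the lowest wild-type array, F14_2. The log2 change was -0.65 ± 0.14 (SE) and did not pass (limma adjusted p = 0.0897). With each group's mean taken off, this probe set correlated with the other 2 of Dsp at 0.34 and 0.23 over the 10 arrays, whereas those 2 correlated with each other at 0.90. The correlations are descriptions over the same arrays, and 1435493_at and 1435494_s_at share 1 source sequence in the annotation.

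**Figure D1:**
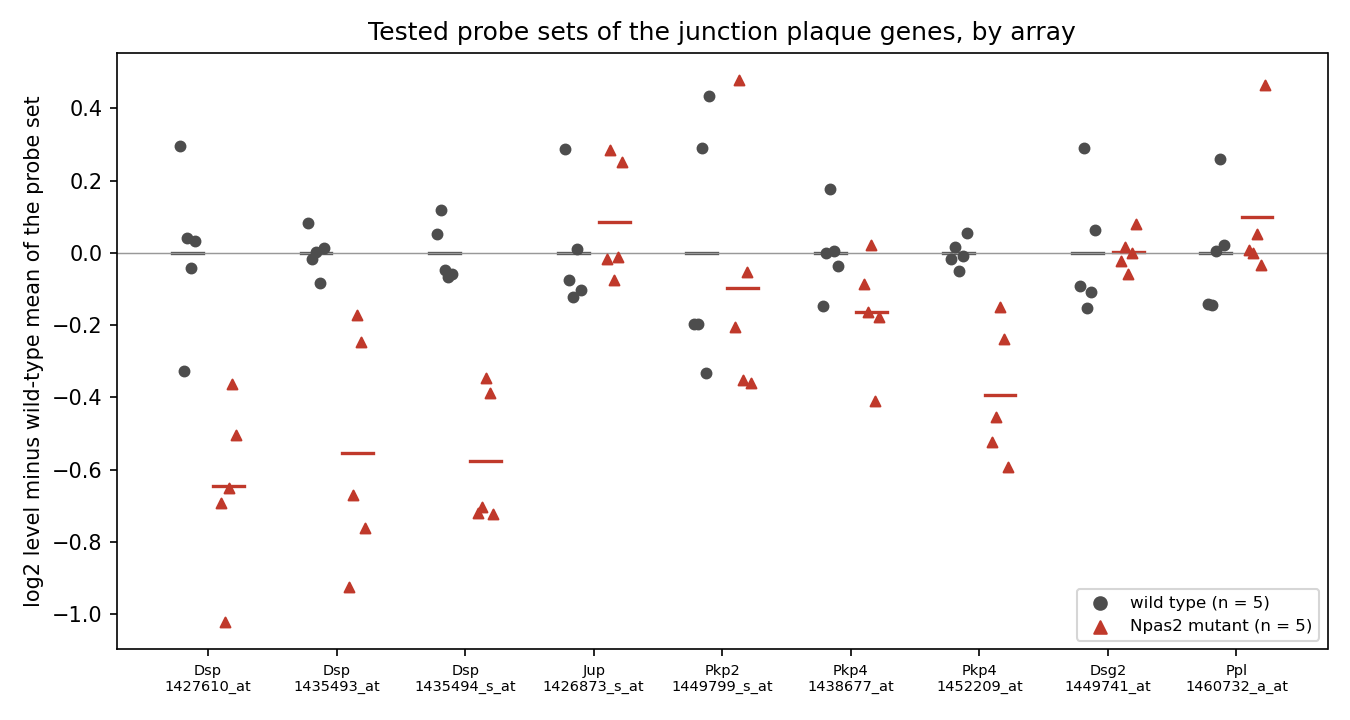
Log2 level of each tested probe set of the 6 measurable genes, minus its wild-type mean, for the 5 wild-type arrays (grey circles) and the 5 Npas2 mutant arrays (red triangles); horizontal lines are group means. On the 3 Dsp probe sets and on Pkp4 1452209_at every mutant array lies below every wild-type array, and on the other 5 probe sets the groups overlap.

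Pkp4 was the other gene whose groups did not overlap, on 1 of its 2 probe sets. On 1452209_at the wild-type levels were 10.26, 10.30, 10.23, 10.27 and 10.34 (F11, F14_2, F15, F16, F17). Mutant levels were 9.75 (F12), 9.82 (F13), 10.13 (F18), 10.04 (F19) and 9.69 (F20). As on the 2 brighter Dsp probe sets, the mutant arrays F18 and F19 stood nearest to wild type. The log2 change was -0.39 ± 0.09 (SE, n = 5 per group), or 1.31-fold lower, and did not pass (limma adjusted p = 0.101).

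The second Pkp4 probe set, 1438677_at, had levels of 6.91, 7.05, 7.23, 7.06 and 7.02 in wild type and of 6.97, 6.89, 7.08, 6.64 and 6.87 in the mutant. Here the groups overlapped and F19 was the lowest mutant array. Its change of -0.16 ± 0.09 (SE) had a 95% interval from -0.36 to 0.03. Within groups the Pkp4 probe sets did not follow each other (r = -0.05 over 10 arrays), and which transcripts each one reads is not given in the sources used here.

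In all, 4 of the 9 tested probe sets had all mutant arrays below all wild-type arrays and 1 passed, beside 2.50% and 0.215% of all tested probe sets. An unadjusted limma p under 0.05 was reached by 4 of the 9, beside 15.3% of all tested. These shares describe the list and are not support for it, because 3 of the 4 probe sets are those of Dsp, which chose it. The median change over the 9 was -0.16, beside -0.03 over all tested probe sets. With each gene counted once by its brightest tested probe set, 3 of 6 had a lower and 3 a higher mean in the mutant, and the median was -0.05.

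The test that chose Dsp used its spread among arrays of the same group, but not how that spread ran with other genes. With group means taken off, Dsp 1435493_at and Pkp4 1452209_at had a Pearson r of 0.91 over the 10 arrays. The spread was larger among the mutant arrays, with SDs of 0.33 for Dsp and 0.19 for Pkp4, against 0.06 and 0.04 in wild type (n = 5 each). The value rests on the mutant arrays, where F18 and F19 stood above the other 3 for both genes. Within groups both probe sets also followed the mean of the smooth muscle markers, at 0.78 for Dsp 1435493_at and 0.73 for Pkp4 1452209_at. In wild type F11 was highest for Dsp and F17 for Pkp4, and F16 was lowest for Dsp and F15 for Pkp4, so the genes did not follow each other there. Dsp 1435494_s_at had a similar value with Pkp4 1452209_at (r = 0.88), but Dsp 1427610_at had r = 0.13 with it and r = -0.43 with Pkp4 1438677_at. On the levels as they stood, Dsp 1435493_at and Pkp4 1452209_at had r = 0.968. Pkp4 1452209_at ranked 7 among 19097 named probe sets of other genes by likeness to Dsp in level, and 47 with the group means taken off. The tested probe sets of Jup, Pkp2, Dsg2 and Ppl, and the other one of Pkp4, ranked between 6322 and 15729 by level. They correlated with Dsp 1435493_at within groups between -0.34 and -0.05.

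Dsp and Pkp4 were the members with a probe set whose groups did not overlap, so the sequences around their start sites are shown, 250 bases before to 50 bases from the start on, from RefSeq (GRCm38.p6). Windows of 3 of the 8 genes (Dsp, Jup and Pkp4) were used, and member windows on 1 chromosome were left out. Capitals mark each E-box of the form CANNTG, read on both strands since the form is its own reverse complement. The first window is that of Dsp at chr13:38151044-38151343, plus strand, and the next ones are those of both annotated Pkp4 starts, at chr2:59160600-59160899 and chr2:59161619-59161918, plus strand.
Dsp: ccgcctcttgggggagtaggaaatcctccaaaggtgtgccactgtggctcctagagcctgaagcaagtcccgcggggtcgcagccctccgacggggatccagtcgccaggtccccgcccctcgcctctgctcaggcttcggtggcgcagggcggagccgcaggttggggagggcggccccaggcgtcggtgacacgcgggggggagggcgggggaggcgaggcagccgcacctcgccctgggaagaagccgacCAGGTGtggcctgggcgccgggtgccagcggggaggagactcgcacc
Pkp4 first start: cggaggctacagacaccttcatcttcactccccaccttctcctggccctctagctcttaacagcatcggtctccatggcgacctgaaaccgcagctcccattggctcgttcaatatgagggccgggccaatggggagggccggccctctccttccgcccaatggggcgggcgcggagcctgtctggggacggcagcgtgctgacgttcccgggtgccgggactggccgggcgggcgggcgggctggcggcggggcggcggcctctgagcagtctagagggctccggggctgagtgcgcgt
Pkp4 second start: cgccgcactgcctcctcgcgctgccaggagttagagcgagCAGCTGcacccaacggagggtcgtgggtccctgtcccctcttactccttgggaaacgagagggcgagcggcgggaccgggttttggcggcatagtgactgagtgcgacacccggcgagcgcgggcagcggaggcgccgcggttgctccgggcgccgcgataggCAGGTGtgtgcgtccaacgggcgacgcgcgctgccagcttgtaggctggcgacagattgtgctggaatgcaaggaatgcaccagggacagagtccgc
The window of Dsp held 1 such hexamer, CAGGTG, 4 bases into the transcript, that of the first Pkp4 start held 0, and that of the second start held 2, CAGCTG and CAGGTG, beginning 210 and 47 bases before the start. The Jup window also held 0. The circadian form CACGTG, a subset of CANNTG, was in none of the 4 windows. Among all 32851 windows of this length in the table, 7.15% held CACGTG and 72.3% held CANNTG. A match or its absence here describes letters in a short window only.

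Among the other plakins, Ppl had similar levels in both groups. Wild-type levels on 1460732_a_at were 5.35, 5.34, 5.49, 5.75 and 5.51, and mutant levels 5.50, 5.49, 5.54, 5.45 and 5.95. The groups overlapped, with the high value on mutant F20. The change of 0.10 ± 0.11 (SE) had a 95% interval from -0.15 to 0.34 (limma adjusted p = 0.680). The single probe set of Evpl stood between 2.54 and 2.75 over the 10 arrays, among the dim values of the table.

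Jup and Pkp2, the armadillo proteins among the members other than Pkp4, showed no separation either. Jup, which encodes plakoglobin, had wild-type levels of 6.66, 6.30, 6.25, 6.38 and 6.27 and mutant levels of 6.36, 6.66, 6.30, 6.36 and 6.62 on 1426873_s_at. Wild type F11 and mutant F13 and F20 were the high arrays, and the ranges overlapped almost wholly. The change was 0.09 ± 0.10 (SE), with a 95% interval from -0.14 to 0.31 (limma adjusted p = 0.692). The interval of Jup did not meet those of the Dsp probe sets, of which the nearest ran from -0.86 to -0.25. Dsp was chosen by this same comparison, so its changes can be overstated and the 2 genes cannot be set against each other on them. The difference between the genes was not tested.

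Pkp2, which is the main plakophilin of heart muscle, was measurable on 1 of its 4 probe sets. On 1449799_s_at wild-type levels were 4.23, 4.23, 4.72, 4.09 and 4.86 and mutant levels 4.22, 4.90, 4.07, 4.37 and 4.06. High and low arrays occurred in both groups, and the change of -0.10 ± 0.19 (SE) had a 95% interval from -0.52 to 0.33. The other 3 probe sets ran from 2.37 to 3.21.

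The desmosomal cadherins were at the dim end. Of 6 Dsg2 probe sets 1, 1449741_at, was bright enough to test, with levels from 3.21 to 3.65 in wild type and from 3.30 to 3.44 in the mutant. Its change was 0.0035 ± 0.08 (SE), with a 95% interval from -0.18 to 0.19. Both Dsc2 probe sets were dim, at 2.38 to 3.06 in wild type and 2.39 to 3.14 in the mutant. At such levels a change in the transcript can be too small on this scale to be seen, so the dim probe sets do not show whether these genes differed.

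Related junction genes, taken from lists that hold no member, were read in the same fit. Of 51 genes, 47 had a probe set of their own and 31 were bright enough, on 61 probe sets. By limma 0 of the 61 passed, beside 0.215% of all tested, and 16 had an unadjusted p under 0.05, beside 15.3% of all tested. The ordinary one-way analysis of variance also called 0. The median change over the 61 was -0.06, with 39 lower and 22 higher means in the mutant, beside 57.6% lower over all tested probe sets. All mutant arrays lay below all wild-type arrays on 6 of them, beside 2.50% of all tested, and above on 1, beside 1.50%. With the 75th percentile filter, where fewer probe sets are tested, 3 of them passed, all lower: both of Gjc1 and 1 of Ctnnb1.

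Of the adherens junction genes, 13 of 17 were tested. Vcl, which encodes the actin linker vinculin, had wild-type levels of 11.16, 11.04, 11.07, 10.98 and 11.13 and mutant levels of 10.61, 10.64, 10.94, 10.91 and 10.66 on 1416156_at. The groups did not overlap, F18 and F19 were again the mutant arrays nearest to wild type, and the change was -0.32 ± 0.08 (SE, limma adjusted p = 0.124). On the dimmer Vcl probe set 1416157_at the groups overlapped, with a change of -0.38 ± 0.11 (limma adjusted p = 0.155). Ctnna3, an alpha catenin that binds plakophilins at the heart's area composita, had a change of -0.28 ± 0.11 (adjusted p = 0.282). Ctnnb1, the beta-catenin gene, had a change of -0.34 ± 0.06 on 1430533_a_at (limma adjusted p = 0.0683), where the groups did not overlap. On its brightest probe set the groups overlapped and the change was -0.18 (limma adjusted p = 0.232).

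Among the gap and tight junction genes, 6 of 10 were tested. Gjc1, which encodes the gap junction protein connexin 45, had wild-type levels of 8.49, 8.44, 8.43, 8.46 and 8.49 and mutant levels of 7.92, 7.87, 8.15, 8.21 and 7.79 on 1449094_at. Every mutant array was lower, the change was -0.48 ± 0.08 (SE), and the limma adjusted p was 0.0552. On 1447787_x_at the change was -0.68 ± 0.14 (adjusted p = 0.0942). Gja1, which encodes connexin 43, had a change of 0.14 ± 0.08 (adjusted p = 0.394).

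In the remaining lists 12 genes were tested. Of the 4 plakin and linker genes, Macf1, a linker of actin and microtubules, had changes of -0.24 ± 0.06 and -0.29 ± 0.06 (SE) on 1428847_a_at and 1428848_a_at (limma adjusted p = 0.121 and 0.101), with no overlap of the groups. On its dimmer probe set 1439582_at the groups overlapped, with a change of -0.26 ± 0.10 (limma adjusted p = 0.264). Eppk1 (epiplakin), at low levels of 3.59 to 4.46, had a change of -0.25 ± 0.15. Of the intermediate filament genes, 6 of 10 were tested. Des, which encodes desmin of muscle cells, had a change of 0.48 ± 0.40 (limma adjusted p = 0.567), with overlapping groups. It was highest on mutant F12, F20 and F19 and wild type F16, the arrays with most skeletal muscle signal. Krt18, a keratin of simple epithelia, had a change of -0.30 ± 0.13 (limma adjusted p = 0.297). Of 10 further desmosome genes, Perp (-0.0044 ± 0.08) and Dsg1b (0.09 ± 0.06) were bright enough, and 5 others were dim.

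**Figure D2:**
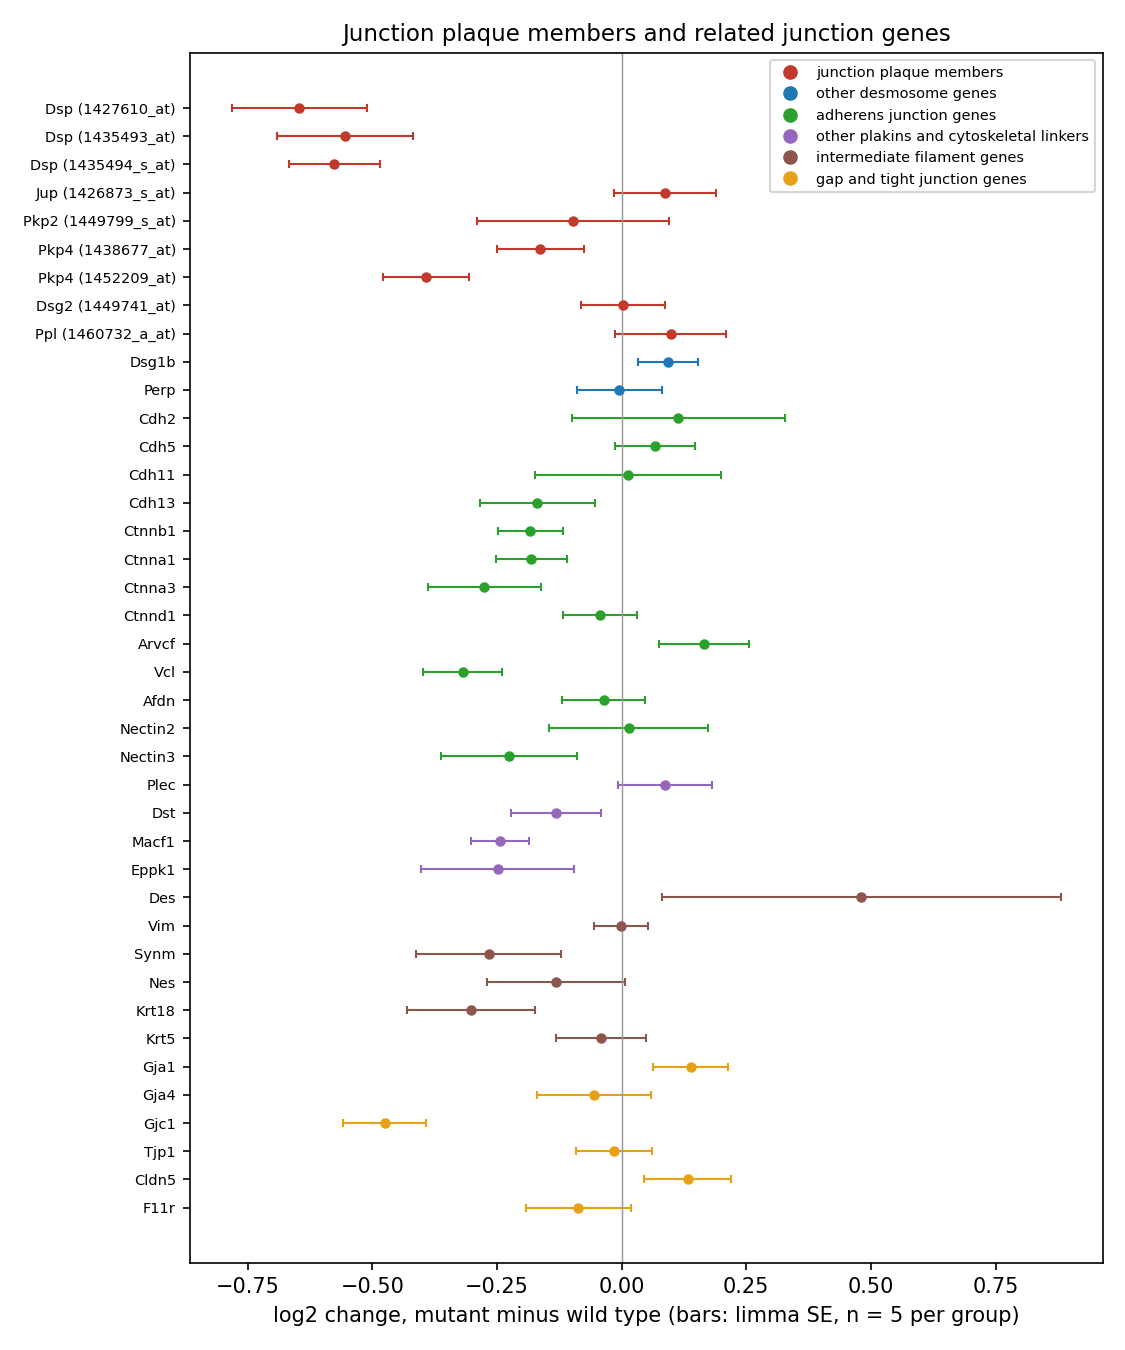
Log2 change, mutant minus wild type, with limma SE (5 arrays per group) for the 9 tested probe sets of the junction plaque genes and the brightest tested probe set of 31 related genes, coloured by list. Dsp and Pkp4 1452209_at lie left of 0, as do Gjc1, Vcl, Krt18, Ctnna3, Synm, Eppk1 and Macf1 among others. Jup, Dsg2 and Ppl lie within about 0.1 of 0.

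The genes whose levels were most like Dsp 1435493_at over the 10 arrays, by Pearson r, were Plcb4 (0.985), a phospholipase C, Tsc22d1 (0.982), a leucine zipper regulator, Ints6 (0.982), an Integrator subunit, Vcl (0.981), Abcc1 (0.981), an efflux transporter, and Msrb3 (0.973), a methionine sulfoxide reductase. Because the Dsp difference between the groups adds to these values, the likeness was also taken with group means off. It was then highest for Tmem63a (0.974), an ion channel gene, Myadm (0.968), Cnpy3 (0.962), Tsc22d1 (0.961), Mib1 (0.961), a ubiquitin ligase of Notch ligands, and Lrrfip1 (0.959). Tsc22d1 was in both sets of 6.

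Marker lists of the cell types in the sample moved with Dsp to different degrees. All 9 smooth muscle markers were measured and all 9 had a lower mean in the mutant, with list means of 11.31 to 11.56 in wild type and 11.15 to 11.37 in the mutant. The 3 mutant arrays with the lowest levels on Dsp 1435493_at and 1435494_s_at, F12, F13 and F20, had smooth muscle means of 11.17, 11.16 and 11.15, and F18 and F19 had 11.36 and 11.37. Within groups this mean correlated with Dsp at 0.78 (1435493_at), 0.86 (1435494_s_at) and 0.46 (1427610_at) over 10 arrays. Of 11 brown fat markers 10 were measured, 9 with a higher mean in the mutant, and the list means did not overlap, at 7.99 to 8.59 in wild type and 8.81 to 9.35 in the mutant. Within groups the brown fat mean correlated with the same probe sets at -0.53, -0.34 and -0.20. For 1427610_at the lists with the largest within-group values were others: adventitial fibroblast (0.76), heart muscle (0.73), adipocyte (-0.73) and macrophage (0.66). The fibroblast mean, over 7 of 8 markers, ran from 10.65 to 11.05 in wild type and from 10.79 to 11.18 in the mutant. The adipocyte mean, over 7 of 9, ran from 9.90 to 10.21 and from 9.84 to 10.32, and the macrophage mean, over 8 of 8, from 6.74 to 7.01 and from 7.00 to 7.29. In such tissue RNA, fewer cells of a type and less RNA per cell cannot be told apart.

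**Figure D3:**
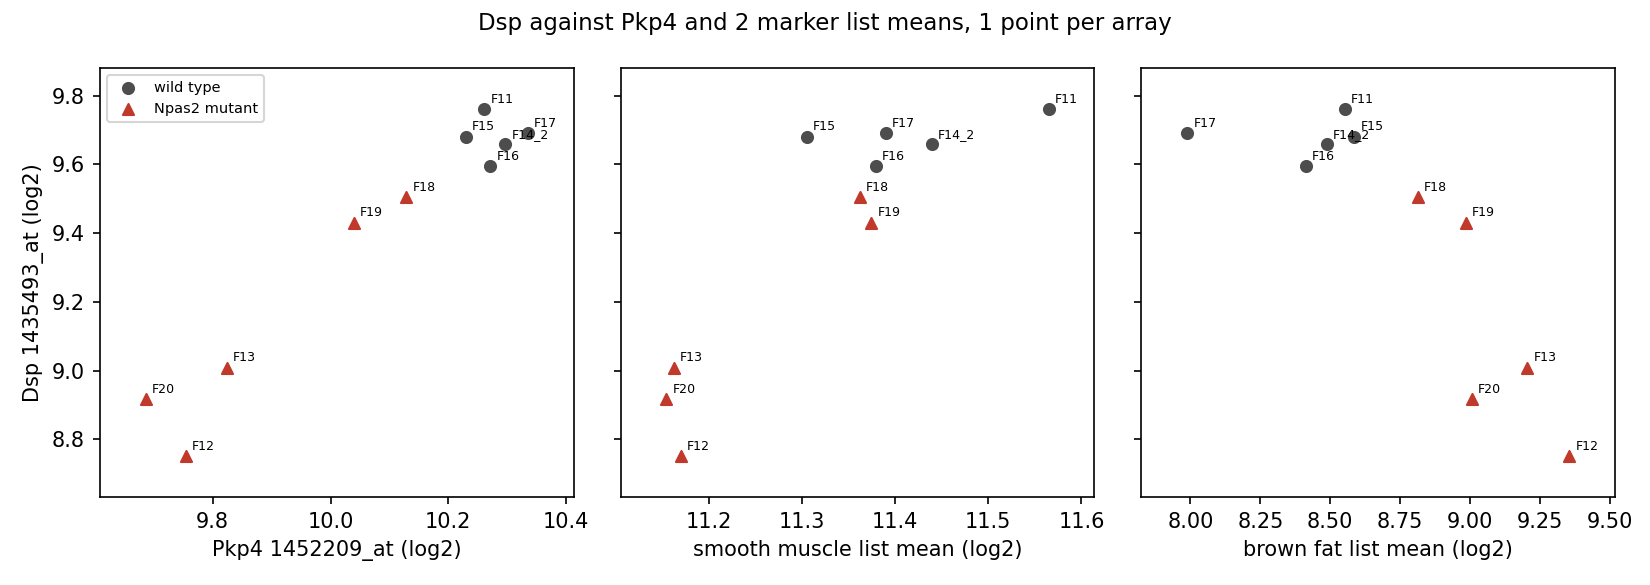
Log2 level of Dsp 1435493_at on each array (vertical axis, labelled by replicate) against Pkp4 1452209_at, the mean of 9 smooth muscle markers and the mean of 10 brown fat markers, all log2. Mutant arrays F12, F13 and F20 lie low in Dsp, Pkp4 and smooth muscle signal, and F18 and F19 lie between them and wild type in Dsp and Pkp4.

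With the smooth muscle mean in the model, an alternative chosen after seeing the data, the Dsp changes were -0.37 ± 0.08 (SE, 1435494_s_at), -0.25 ± 0.13 (1435493_at) and -0.47 ± 0.17 (1427610_at), and that of Pkp4 1452209_at was -0.23 ± 0.09. With the brown fat mean they were -0.43 ± 0.17, -0.19 ± 0.24 and -0.51 ± 0.27, and -0.16 ± 0.15 for Pkp4. Because the brown fat means did not overlap between the groups, that fit can hardly tell group and brown fat signal apart. The SE of 1435494_s_at was 0.17 in it, beside 0.09 without a covariate. No member passed in either fit (limma adjusted p from 0.342 up), and 1 and 0 probe sets of the whole table passed with brown fat and smooth muscle. The part of these cell types in the Dsp difference was not tested.

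Cell types in which desmosomes are prominent, and lymphatic endothelium beside them, were read through their own markers. Of 12 mesothelial and simple epithelial markers 6 were measured, 5 with a higher mean in the mutant, and list means ran from 3.67 to 4.53 in wild type and from 3.96 to 4.69 in the mutant. Krt18, the brightest of the 6, was the 1 lower in the mutant, and Upk3b had the widest range (2.33 to 5.74 in wild type). Msln, Upk1b and Epcam had wild-type means of 3.45, 3.55 and 3.44, close to the array medians of 3.14 to 3.20. Among the untested dim probe sets of the whole table, 82.4% had a higher mean in the mutant. Wt1, Muc16, Krt7, Krt8, Krt19 and Cdh1 were too dim. Of 10 heart muscle markers 4 were measured, with list means of 5.24 to 6.82 and 5.26 to 7.75, highest on mutant F19 and wild type F11. Within groups the heart muscle mean correlated with Dsp at 0.73 (1427610_at), 0.58 (1435493_at) and 0.52 (1435494_s_at) over 10 arrays. Myh7, Tnni3, Myl2, Myl7, Nppa and Mybpc3 were dim. Of 8 keratinocyte markers 3 were measured, with list means of 3.36 to 3.55 in wild type and 3.52 to 3.71 in the mutant, and Krt1, Krt14, Krt15, Trp63 and Lor were dim. Of 6 lymphatic endothelial markers 4 were measured, at 5.91 to 6.36 and 6.16 to 6.50, and Prox1 was dim. For the same Dsp probe sets, in the order given for heart muscle, within-group values were 0.23, 0.26 and 0.35 for the mesothelial and epithelial mean. They were 0.20, -0.25 and -0.21 for the keratinocyte mean and 0.29, 0.33 and 0.07 for the lymphatic endothelial mean. The part of these cells in the Dsp levels was not tested.

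Among the 108 pairs of a member probe set and a marker list, the closest within groups lay outside Dsp and were picked after their values were seen. Pkp2 1449799_s_at followed the mean of the 5 measured of 9 Schwann cell and nerve markers, with r = 0.93 over the 10 arrays. That mean ran from 6.92 to 7.41 in wild type and from 6.95 to 7.53 in the mutant, and was highest on mutant F13 and wild type F17, the arrays with the highest Pkp2. Mbp had the widest range of the 5 markers, from 6.19 to 8.48 in wild type and 6.38 to 8.49 in the mutant, and weighed most in the mean. The markers did not all run together: S100b was highest on mutant F13 (6.28) but lowest on wild type F17 (4.91). Pkp4 1438677_at ran against the mesothelial and epithelial mean (r = -0.86), being lowest on mutant F19, where that mean was highest. Both are descriptions over arrays that share each RNA sample.

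Skeletal muscle signal had the widest range of the marker lists. With its list mean as a covariate the Dsp changes were -0.55 ± 0.10, -0.49 ± 0.13 and -0.67 ± 0.15 (SE; 1435494_s_at, 1435493_at, 1427610_at). Without the 4 arrays that held most of it, which left 4 wild-type and 2 mutant arrays, they were -0.54 ± 0.12, -0.44 ± 0.14 and -0.85 ± 0.19. Neither fit called a member, and the part of this tissue in the Dsp difference was not tested.

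**Figure D4:**
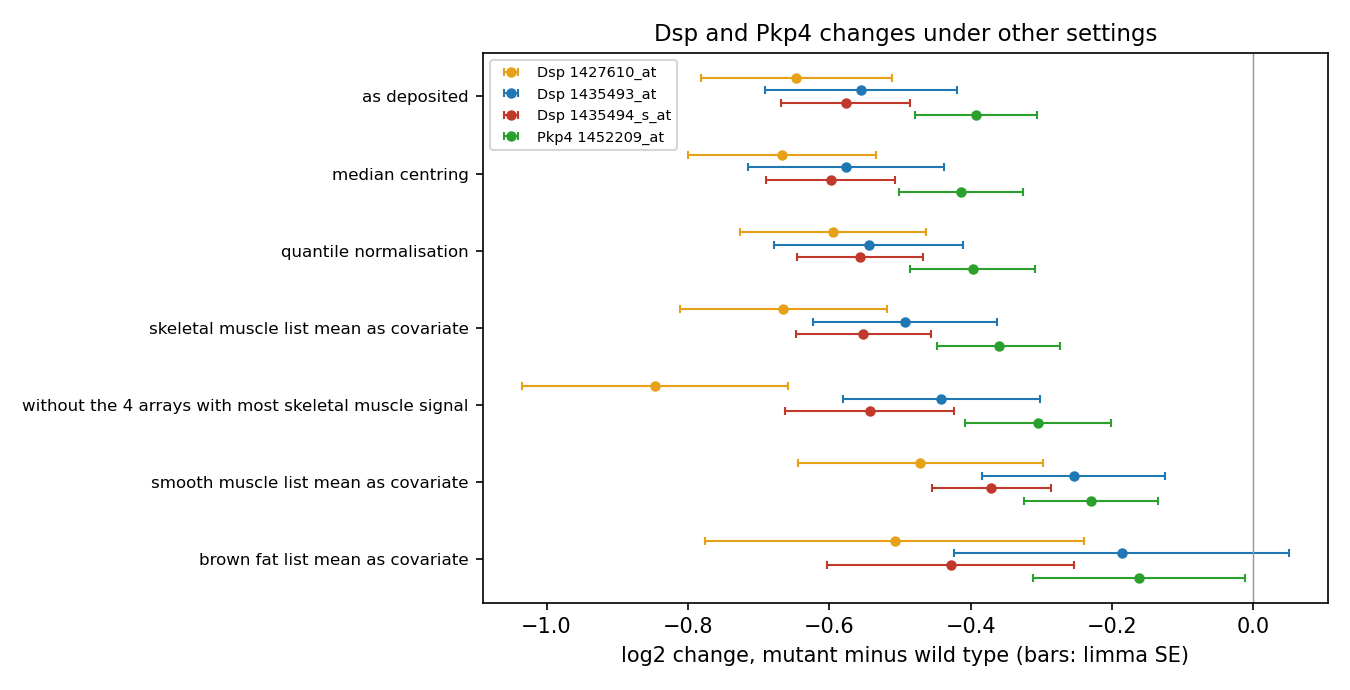
Log2 change, mutant minus wild type, with limma SE for the 3 Dsp probe sets and Pkp4 1452209_at as deposited, after 2 other scalings, with marker list means as covariates and without 4 arrays. All values lie below 0, and those with the smooth muscle or brown fat mean as covariate lie nearest to it for each Dsp probe set and for Pkp4. The brown fat mean did not overlap between the groups, so that covariate can hardly be told apart from group.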

How the data were processed

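The authors deposited log2 expression values, 1 per probe set and array, for total RNA hybridised to Affymetrix MOE 430V2 arrays, per the labels. GCRMA and MAS5 appear in the submitters' processing notes, without saying which made the table, and the log2 scale was read from the values (1.10 to 14.74). Of 45101 probe sets 64 were controls, and 34958 had 1 gene in the platform annotation, whose symbols were updated by gene identifier to GRCm38.p6. Probe sets above their array's median on at least 5 of 10 arrays were fitted with limma 3.58.1 (lmFit and eBayes) in R 4.3.3, mutant minus wild type, as two-sided tests. P-values were adjusted by Benjamini and Hochberg's method across the 22340 tested, with a threshold of 0.05. SE and 95% intervals are those of that fit. The fit was tested on simulated data. No replicate identifier was shared by both groups, so nothing was paired. Array dates are not stated in the labels.

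The members and lists were chosen with earlier results of these data known. The naming rule took every member probe set, the 2 related genes of each list with the largest change on their brightest probe set and any that passed, and the 6 genes most like Dsp by each measure. Ctnnb1, Synm and the further probe sets of Gjc1, Macf1 and Vcl were named after their values were seen. Marker list means use each gene's brightest tested probe set. Alternatives were the filter (none, or the 75th percentile), median centring, quantile normalisation, ordinary one-way analysis of variance, brown fat or skeletal muscle covariates and leaving out each array. A smooth muscle covariate and leaving out 4 arrays were added after the data were seen.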

Additional observations from a re-analysis of the deposited data

Results flagged for a closer look

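In 4 of 40 groups of 5 arrays, 1 array stood far from the rest by Dixon's ratio, which chance gives in about 5% of groups. Mutant F20 was high for Ppl, at 5.95 with the next mutant array at 5.54. The others were dim probe sets: Dsc2 1421156_a_at on mutant F12 (2.68, next 2.44), Pkp2 1429183_at on wild type F11 (2.67, next 2.87) and Pkp2 1420259_at on wild type F15 (3.01, next 3.10). No Dsp or Pkp4 probe set had such an array.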

How the results depend on the processing

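Each setting was changed alone. The Dsp and Pkp4 1452209_at changes stayed below 0 in all alternatives that tested them, with the lowest and highest values without 1 array at -0.73 and -0.55 (Dsp 1427610_at), -0.65 and -0.46 (Dsp 1435493_at), -0.63 and -0.54 (Dsp 1435494_s_at) and -0.45 and -0.34 (Pkp4 1452209_at). The count of member probe sets that passed was 1 as deposited, with the 75th percentile filter, with median centring and with quantile normalisation. It was 0 without a filter, by one-way analysis of variance, with the brown fat, skeletal muscle or smooth muscle mean as covariate and without the 4 arrays with most skeletal muscle signal. Leaving out 1 array gave 0 to 1, and 1 only without mutant F18. The adjusted p of Dsp 1435494_s_at ran from 0.0150 (75th percentile filter) to 0.644 (brown fat covariate). Related probe sets that passed numbered 0, but 3 with the 75th percentile filter, where fewer probe sets are tested; without 1 array they numbered 0 to 0. Over all probe sets the 48 became 17 without a filter, 141 with the 75th percentile filter, 13 by one-way analysis of variance, 1 with brown fat, 7 with skeletal muscle and 0 with smooth muscle as covariate (limma, 1749 at an unadjusted p under 0.05), 0 without the 4 arrays (1520), and 9 (without wild type F16) to 43 (without wild type F14_2) without 1 array. Median centring kept 48, split 17 higher and 31 lower, and quantile normalisation gave 61, split 32 and 29, beside 21 and 27. Except where stated, the cause was not tested. No paired analysis was possible because the groups share no replicate number. The number of arrays limits the precision, and dim probe sets lie near the background.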

Other observations

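The dim probe sets of the junction plaque genes leaned upwards as a group: in 10 of 11 the mutant mean was the higher one, with a median change of 0.03. The same held for 82.4% of all dim probe sets, with a median change of 0.02. The groups overlapped on all 11 of these probe sets, as they did on 22422 of the 22697 dim probe sets of the table.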
